A study of Mus musculus with 9 samples.

Results

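Potassium channels, ATP release channels, calcium-permeable TRP channels and the proton channel that act beside P2 receptors were followed in phagocytes sorted from the mouse peritoneal wall. The set held Kcnk13, Kcnk6, Kcnn4, Kcna3, Panx1, Lrrc8a, Trpv2, Trpm2 and Hvcn1, which were the rows of the deposited expression table with those symbols, 9 of 28764 genes listed. All mice were F1 offspring of Jackson Laboratories reporter lines with the genotype Cx3cr1gfp/+ Ccr2rfp/+, so every group was heterozygous for a GFP insertion in Cx3cr1 and an RFP insertion in Ccr2. All groups also shared an intravenous injection of 50 µg of labelled dextran on the day before, perfusion, and a 20 min Liberase digestion of the peritoneal wall. The caspase inhibitor Z-VAD-FMK was present during digestion and staining. CD11b+ Ly6G- cells were sorted into 3 populations: dextran+ MHCII- cells without either reporter (double-negative, 85 to 90% of the CD11b+ Ly6G- cells per the labels), MHCII+ CCR2-RFP cells (10 to 15%) and MHCII+ CX3CR1-GFP cells (0.5 to 1.5%). The populations therefore differ in MHCII, and the first was also gated on dextran uptake, as well as in the reporters. The age of the mice was not given in the sources used here. There were 9 libraries, 3 per population, from 1 ng of RNA each. Each sort (1, 2A or 2B) was taken to be a separate mouse, 3 in all, which the labels do not state outright. Sorts 2A and 2B may have been done on the same day, in which case they would be less independent than the tests assume. The p-values below rest on a spread per gene, pooled over the 3 sorted samples of each population. The 3 comparisons share this spread, which was moderated over all tested genes.

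Extracellular ATP opens P2X channels and activates P2Y receptors on macrophages. Potassium that leaves the cell during P2X7 activation is a known trigger of the NLRP3 inflammasome, and the two-pore channels THIK-1 (Kcnk13) and TWIK-2 (Kcnk6), the calcium-activated channel KCa3.1 (Kcnn4) and the voltage-gated channel Kv1.3 (Kcna3) are routes for that potassium or set the membrane potential that draws calcium in. THIK-1 is best known from microglia, where it acts with P2Y12. Pannexin-1 (Panx1) and the volume-regulated anion channel, whose obligatory subunit is LRRC8A, let anions and small solutes such as ATP out of the cell. TRPV2 and TRPM2 admit calcium, the latter when ADP-ribose binds it, and the proton channel HVCN1 carries out the protons that the phagocyte NADPH oxidase leaves behind.

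Expression was given in TPM, a unit scaled by transcript length and library total that permits levels of different genes to be compared within a library, without read counts, so sequencing depth is unknown. The 9 libraries listed 278579 to 382828 TPM in total, and no columns were identical. Ccr2 stood at 95.4 to 115 TPM in the CCR2-RFP libraries and 1.65 to 6.68 elsewhere, while Cx3cr1 reached 4.13 to 16.4 TPM in CX3CR1-GFP cells and had a listed level of 0 in all 6 remaining libraries. Of 9 macrophage markers, 9 averaged above 1 TPM in the double-negative and CX3CR1-GFP cells and 8 in the CCR2-RFP cells, where Fcgr1 averaged 0.794 TPM. Transcripts used as markers of other cells moved with the populations. Whether other cells or the sorted cells themselves made them was not tested. The 10 conventional dendritic cell markers summed to 118 to 165 TPM in CCR2-RFP libraries, against 38.2 to 74.6 in double-negative and 22.7 to 29.9 in CX3CR1-GFP libraries. Most of that sum was Cd209a (79.2 to 121 TPM in the CCR2-RFP libraries). Of the 8 tested markers 6 were higher and 1 lower in CCR2-RFP relative to double-negative cells (14.9% and 9.88% of all tested genes were). Xcr1 passed the filter on low values, at least 1 TPM in 3 libraries, through the CCR2-RFP libraries alone, and Clec9a and Flt3 mainly so. Higher levels of these there were therefore largely set by the filter, and the count supports nothing. Clec9a reached 3.12 to 6.47 TPM in the CCR2-RFP libraries, but Irf8 was at 1.29 to 3.34 TPM there against 9.07 or more in the other 6. Zbtb46 averaged 2.07 TPM against 2.43 and 2.15 in double-negative and CX3CR1-GFP cells. T and NK cell markers summed to 36.8 to 50.8 TPM in CCR2-RFP libraries, mostly Cd2, and to at most 4.43 and 12.7 TPM in double-negative and CX3CR1-GFP libraries. In the CCR2-RFP libraries Cd3e was at most 0.0857 TPM, Cd3d 0.748 to 1.99, Klrb1c 1.26 to 2.41, Nkg7 up to 3.32 and Gzma up to 4.36 TPM. Skeletal muscle markers reached 882 TPM in CCR2-RFP 2A and 1551 TPM in CX3CR1-GFP 2A, which stand apart in this respect from the other libraries. The part of these transcripts in the channel results was not tested. In bulk samples, fewer cells of a type and less RNA per cell cannot be told apart.

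Stretches upstream of the annotated starts are shown for the 3 potassium channel genes among the 9 that the F test called, because 2 of them, Kcnn4 and Kcna3, were both higher in CCR2-RFP cells than in double-negative cells while Kcnk13 had its highest level in the double-negative cells. RefSeq (GRCm38.p6) gave promoter windows, 250 bases before to 50 after a start, for 7 of the 9 genes. Entries were not found for Kcnk6 and Hvcn1. The 250 bases before the start are printed 5′ to 3′ on the plus strand, with capitals marking matches on either strand to GAGGAA (a core of PU.1 sites), TGANTCA (AP-1), TGACGTCA (cAMP response element) or CACGTG (E-box). The first is at chr7:24370013-24370262, the second at chr3:107035912-107036161 and the third at chr12:99964249-99964498.
Kcnn4: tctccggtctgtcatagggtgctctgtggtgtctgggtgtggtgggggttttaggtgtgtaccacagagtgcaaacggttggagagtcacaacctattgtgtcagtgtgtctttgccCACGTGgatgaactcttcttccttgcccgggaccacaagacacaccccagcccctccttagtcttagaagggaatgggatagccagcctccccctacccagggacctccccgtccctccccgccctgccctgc
Kcna3: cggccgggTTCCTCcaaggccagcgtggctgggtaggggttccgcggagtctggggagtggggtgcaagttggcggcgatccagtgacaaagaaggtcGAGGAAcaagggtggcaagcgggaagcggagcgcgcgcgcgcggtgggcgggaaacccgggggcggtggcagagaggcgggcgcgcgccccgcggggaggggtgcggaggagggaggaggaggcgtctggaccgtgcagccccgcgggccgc
Kcnk13: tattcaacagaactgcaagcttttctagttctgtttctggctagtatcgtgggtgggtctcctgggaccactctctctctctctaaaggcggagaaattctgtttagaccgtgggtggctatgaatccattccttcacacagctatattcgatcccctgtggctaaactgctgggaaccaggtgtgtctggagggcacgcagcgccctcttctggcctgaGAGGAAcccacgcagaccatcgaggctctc

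Kcna3 held GAGGAA or its reverse complement with first bases at -242 and -152 from the start, and Kcnk13 held it at -30. The Kcnn4 window had no such match and held CACGTG at -133. GAGGAA was found in 3 of the 7 genes with a window (Kcna3, Kcnk13 and Trpv2), against 28.3% of 32851 mouse promoter windows of the same 300 bases. CACGTG was found in Kcnn4 and Lrrc8a, against 7.15%, TGACGTCA in Lrrc8a alone, against 1.79%, and TGANTCA in 0 of 7, against 7.81%. These are letter matches and say nothing of binding. GC content of the full windows was 59.7% for Kcnn4, 75.0% for Kcna3 and 52.7% for Kcnk13.

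Among the channels, Kcnn4 and Kcna3 rose and Hvcn1 fell in CCR2-RFP cells relative to double-negative cells, while in CX3CR1-GFP cells Kcna3 rose and Kcnk13 fell relative to the same double-negative cells. Between the reporter-positive populations, Kcnn4 was lower and Hvcn1 higher in CX3CR1-GFP cells. Kcnk6, Panx1, Lrrc8a and Trpv2 passed no test, and Trpm2 was too low to test. Of the 9 genes, 8 passed the filter of at least 1 TPM in at least 3 libraries, which 10136 genes of the table passed. With limma and a Benjamini-Hochberg adjusted p below 0.05 over all tested genes, 3 of the 8 were called in CCR2-RFP against double-negative cells, where 24.8% of tested genes were called. In CX3CR1-GFP against double-negative cells 2 of 8 were called, against a background of 2.77% (1 higher, where 1.16% of tested genes were higher, and 1 lower, where 1.61% were lower), and in CX3CR1-GFP against CCR2-RFP cells 2 of 8, against 26.3%. An F test for any difference among the 3 populations called 4 of 8, namely Kcnn4, Kcna3, Kcnk13 and Hvcn1, against 27.4%. The libraries of the populations did not overlap for 4 of 8, 2 of 8 and 3 of 8 genes in the same order of comparisons, against 42.7%, 21.1% and 39.4% of tested genes. The counts of calls that involve CCR2-RFP cells and all counts of non-overlap thus lie near their backgrounds. Kcnn4 and Hvcn1 passed the filter mainly through the population where each was highest, and Kcna3 through the reporter-positive libraries alone. The counts themselves therefore support nothing. The 3 comparisons share their libraries pairwise and are not independent. The median log2 difference of the 8 genes was -0.21, -0.35 and -0.23, against 0.09, -0.03 and -0.11 over all tested genes. These medians cover the same filtered genes and support nothing either.

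**Figure D1:**
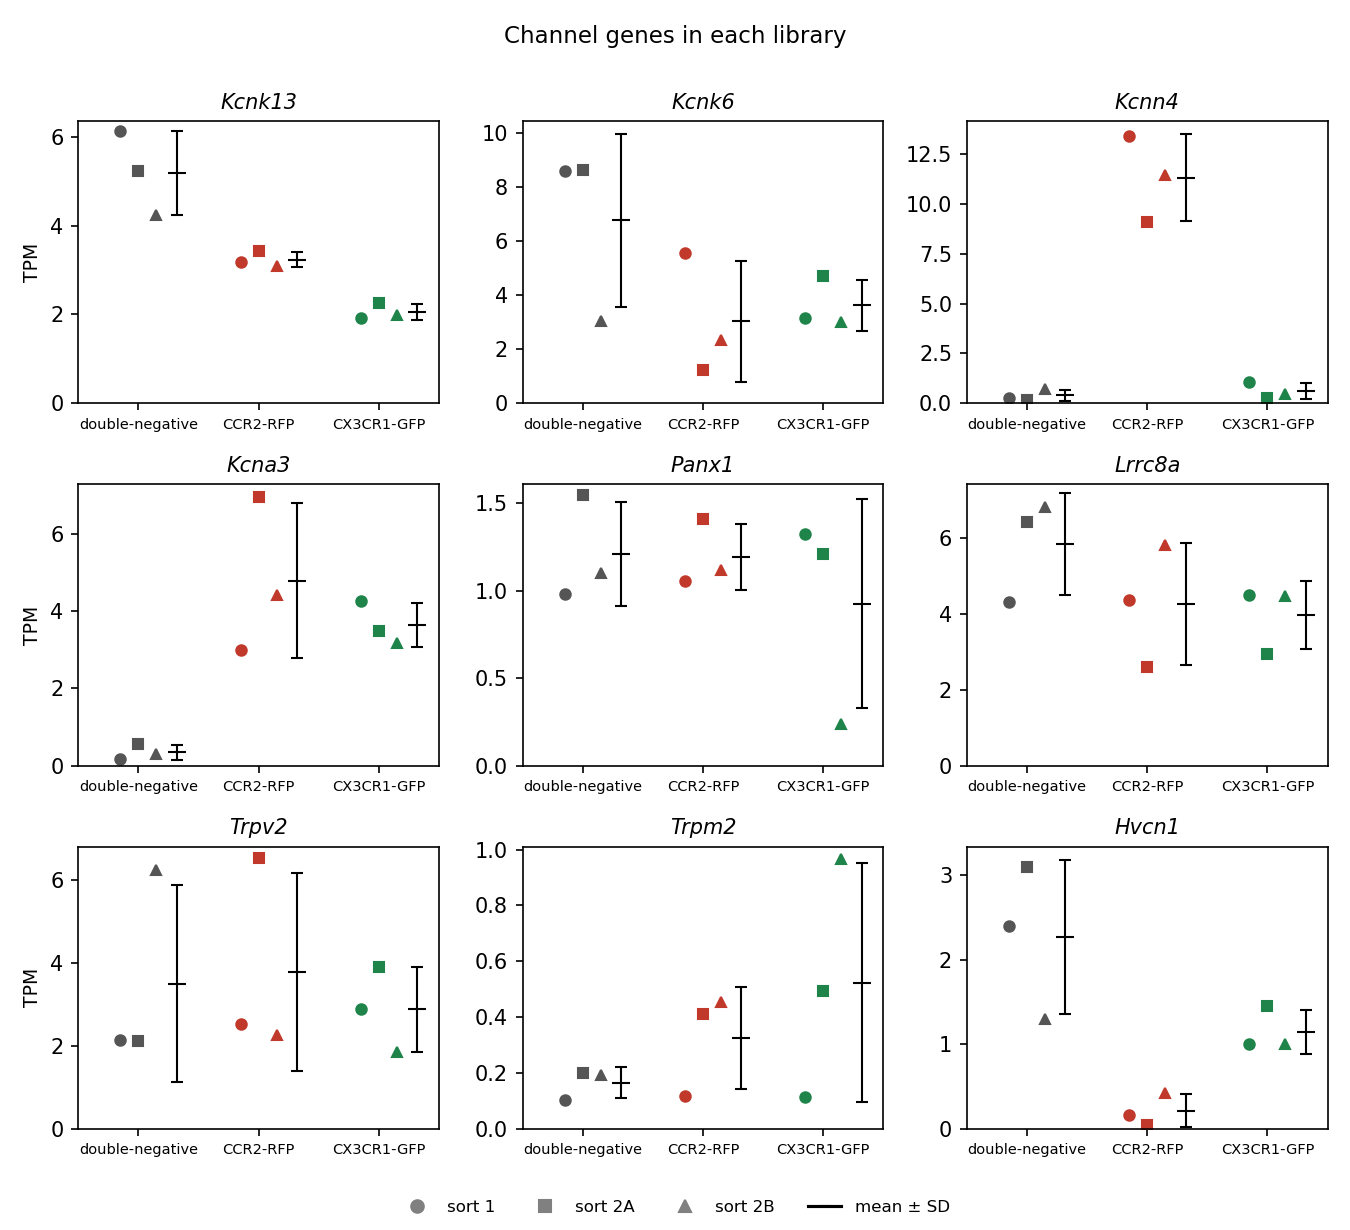
TPM of the 9 channel genes (vertical axes, one scale per gene) in the double-negative, CCR2-RFP and CX3CR1-GFP libraries (horizontal axes). Points are single libraries, marker shapes the sort labels, and bars the mean ± SD of 3 libraries. Kcnn4 lies at 9.11 to 13.4 TPM in the CCR2-RFP libraries and at 1.05 or less elsewhere, and Kcnk13 falls into 3 separate ranges.

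Kcnn4 had the largest differences of the 8 tested channel genes. It encodes the intermediate-conductance calcium-activated potassium channel KCa3.1, which opens when cytosolic calcium rises, and lies on chromosome 7 at 24370263 to 24386690 (GRCm38, plus strand). It stood at 0.248, 0.164 and 0.715 TPM in double-negative 1, 2A and 2B, at 13.4, 9.11 and 11.4 TPM in CCR2-RFP 1, 2A and 2B, and at 1.05, 0.271 and 0.446 TPM in CX3CR1-GFP 1, 2A and 2B. All 3 CCR2-RFP libraries lay far above the other 6, while the double-negative and CX3CR1-GFP libraries overlapped. The mean of 11.3 ± 2.17 TPM (SD, n = 3) in CCR2-RFP cells was 30.2 times that of 0.376 ± 0.297 in double-negative cells. On the log2(TPM + 1) scale, which understates the change of low genes, the difference was 3.17 (95% interval 2.60 to 3.74, limma adjusted p = 1.55e-05). CX3CR1-GFP cells, at 0.589 ± 0.409 TPM, were lower than CCR2-RFP cells by a log2 difference of -2.97 (-3.54 to -2.40, adjusted p = 2.65e-05). Between CX3CR1-GFP and double-negative cells the difference was 0.20 (-0.37 to 0.77, adjusted p = 0.779). Kcnn4 reached 1 TPM only in the 3 CCR2-RFP libraries and in CX3CR1-GFP 1, so a higher level in CCR2-RFP cells was bound to appear. With all of sort 1 left out the gene did not pass the filter and was not tested. Both Kcnn4 calls held in the 21 alternative settings in which the gene was tested, those without CCR2-RFP 2A or CX3CR1-GFP 2A included. The summed dendritic cell markers, mostly Cd209a, were high in the same libraries as Kcnn4 (118 to 165 TPM, against at most 74.6 in the others), while Irf8 was lowest there, and their part in the result was not tested.

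Kcna3 separated double-negative cells from both reporter-positive populations. The gene encodes Kv1.3, a voltage-gated potassium channel best known from effector T cells and activated microglia, and is a single exon of 1902 bases on chromosome 3 at 107036169 to 107038070. Its levels were 0.189, 0.570 and 0.297 TPM in the double-negative libraries, 2.99, 6.94 and 4.41 TPM in the CCR2-RFP libraries and 4.27, 3.49 and 3.17 TPM in the CX3CR1-GFP libraries (sorts 1, 2A and 2B in each). The 3 double-negative libraries were below all 6 others, and the other populations overlapped. No double-negative library reached 1 TPM, so Kcna3 passed the filter through the reporter-positive libraries alone and higher levels there were bound to appear. Among T and NK cell markers, Nkg7 and Gzma were listed at 0 in all double-negative libraries. In CCR2-RFP 1, 2A and 2B Nkg7 was at 3.32, 0 and 0 TPM and Gzma at 4.36, 0.0667 and 0.646 TPM. In CX3CR1-GFP 1, 2A and 2B Nkg7 was at 0, 1.58 and 1.59 TPM and Gzma at 0, 5.47 and 0.776 TPM. Cd2 averaged 1.62, 37.5 and 0.873 TPM in double-negative, CCR2-RFP and CX3CR1-GFP cells. Cd3d was at 0.544 to 2.27 TPM over the 9 libraries, and Cd3e was at most 0.249 TPM. Their part in the Kcna3 result was not tested. The means of Kcna3 were 0.352 ± 0.196, 4.78 ± 2.00 and 3.64 ± 0.564 TPM. Kcna3 was thus 13.6 times as high in CCR2-RFP as in double-negative cells, with a log2 difference of 2.05 (95% interval 1.46 to 2.64, adjusted p = 0.000267). In CX3CR1-GFP cells it was 10.4 times as high as in double-negative cells, with a log2 difference of 1.78 (1.20 to 2.37, adjusted p = 0.00579). The reporter-positive populations differed by -0.27 (-0.85 to 0.32, adjusted p = 0.502), so neither equality nor a difference was shown. Without any single library the 2 calls remained. With all libraries of sort 1 or of sort 2B left out, the call in CX3CR1-GFP cells was lost (adjusted p = 0.117 and 0.115). Without CCR2-RFP 2A, which has the highest Kcna3 value and high muscle transcripts, the CCR2-RFP difference was 1.79 (adjusted p = 0.00102), and without CX3CR1-GFP 2A the CX3CR1-GFP difference was 1.80 (adjusted p = 0.0217).

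Kcnk13 had a separate range of levels in each population, of which the highest and the lowest were called different. It encodes THIK-1, a two-pore background channel through which P2 receptor activation can drive potassium out of microglia, and lies on chromosome 12 at 99964499 to 100062682. The double-negative libraries held 6.13, 5.22 and 4.23 TPM, the CCR2-RFP libraries 3.18, 3.42 and 3.09 TPM, and the CX3CR1-GFP libraries 1.92, 2.25 and 1.98 TPM. No library of a population overlapped with another population. The CX3CR1-GFP mean of 2.05 ± 0.176 TPM was 0.395 of the double-negative mean of 5.19 ± 0.947, a log2 difference of -1.01 (95% interval -1.42 to -0.60, adjusted p = 0.0178). CCR2-RFP cells, at 3.23 ± 0.168 TPM, differed from double-negative cells by -0.54 (-0.95 to -0.13, adjusted p = 0.0576) and from CX3CR1-GFP cells by a log2 difference of 0.47 in size (CX3CR1-GFP minus CCR2-RFP -0.47, -0.88 to -0.06, adjusted p = 0.0873). The call between CX3CR1-GFP and double-negative cells rested on few libraries. The adjusted p was 0.0936 with double-negative 1 left out, 0.0764 with double-negative 2A left out and 0.0549 with CX3CR1-GFP 1 left out, and it was 0.313, 0.146 and 0.117 with all libraries of sort 1, 2A or 2B left out. Without CX3CR1-GFP 2A it was -1.06 (adjusted p = 0.0381). The comparison of CCR2-RFP with double-negative cells was called without double-negative 2B (adjusted p = 0.0458).

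Kcnk6 varied too much within populations for a call. It encodes TWIK-2, another two-pore channel, described as a potassium efflux route for NLRP3 activation in macrophages, and lies on chromosome 7 at 29221926 to 29232515 on the minus strand. Its levels were 8.61, 8.66 and 3.04 TPM in the double-negative libraries, 5.54, 1.21 and 2.34 TPM in the CCR2-RFP libraries and 3.14, 4.71 and 3.01 TPM in the CX3CR1-GFP libraries. Double-negative 2B and CCR2-RFP 1 lay inside the range of the other populations. The log2 difference was -0.99 (95% interval -1.95 to -0.03, adjusted p = 0.132) for CCR2-RFP minus double-negative cells, -0.66 (-1.62 to 0.30, adjusted p = 0.524) for CX3CR1-GFP minus double-negative and 0.32 (-0.64 to 1.28, adjusted p = 0.629) for CX3CR1-GFP minus CCR2-RFP. Without double-negative 2B the first was called (-1.40, adjusted p = 0.0400), and likewise without CCR2-RFP 1 (-1.41, adjusted p = 0.0382).

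**Figure D2:**
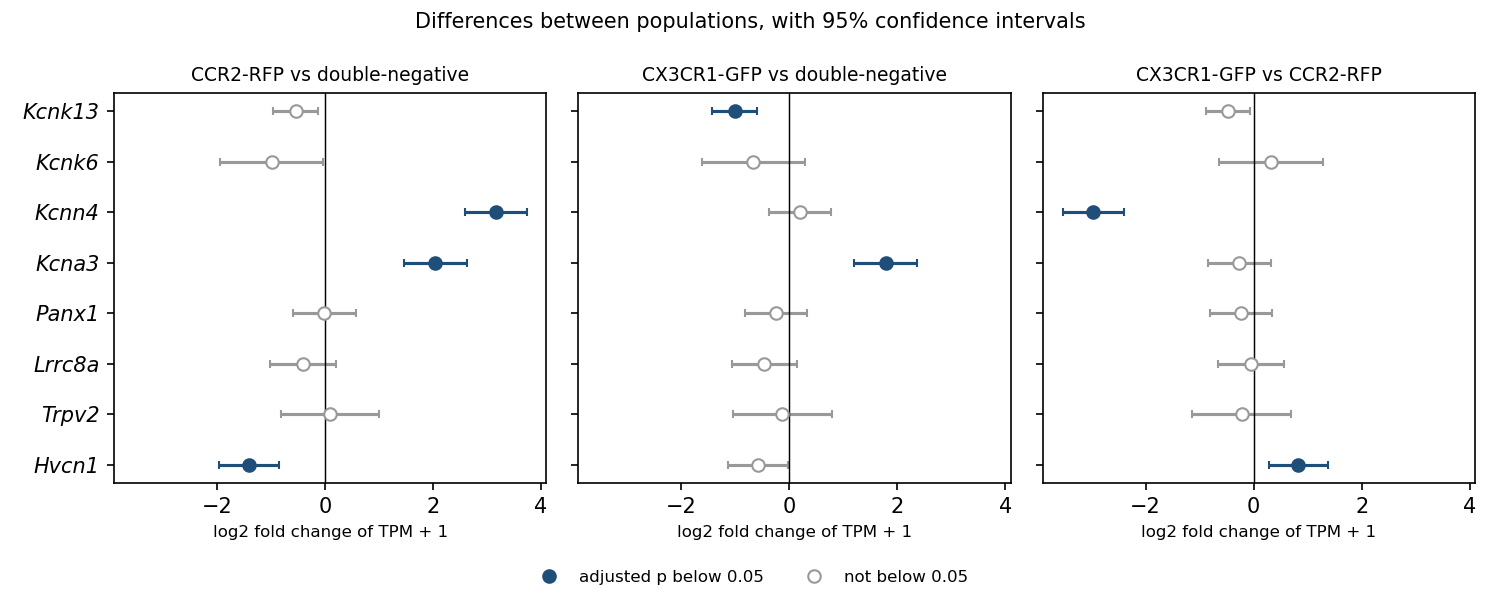
Log2 differences of TPM + 1 (horizontal axes) for the 8 tested channel genes (vertical axis) in the 3 comparisons, with 95% confidence intervals from limma. Filled points have an adjusted p below 0.05 over all tested genes, as Kcnn4 at 3.17, Kcna3 at 2.05 and Hvcn1 at -1.40 in CCR2-RFP against double-negative cells.

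Most potassium channel genes did not pass the filter on low values. Of 89 genes for potassium channels and their subunits in the table, 11 passed the filter, among them the 4 described above. In CCR2-RFP against double-negative cells 4 were higher and 1 lower (14.9% and 9.88% of all tested genes were). The 4, Kcnn4, Kcna3, Kcnq1 and Kcne3, were below 1 TPM in every double-negative library. They passed the filter only through reporter-positive libraries, so higher levels there were bound to appear and the count supports nothing. In CX3CR1-GFP against double-negative cells 1 was higher and 1 lower (1.16% and 1.61%), and between the reporter-positive populations 1 was higher and 3 lower in CX3CR1-GFP cells (8.96% and 17.3%). The median log2 difference of the 11 between CCR2-RFP and double-negative cells was 0.48, against 0.09 over all tested genes. Since it includes Kcnn4, Kcna3, Kcnq1 and Kcne3, the filter raised it too, and it supports nothing either. Kcnq1, a voltage-gated channel of epithelia and heart, and Kcne3, the small subunit that keeps it open, followed the pattern of Kcnn4. Kcnq1 stood at 15.0, 7.56 and 10.4 TPM in the CCR2-RFP libraries and at 0.379 or less in all others, being listed at 0 in CX3CR1-GFP 1 and 2A. Kcne3 stood at 5.71, 11.8 and 7.80 TPM in the CCR2-RFP libraries and at 0.277 or less elsewhere. Their log2 differences from double-negative cells were 3.20 (adjusted p = 1.19e-05) and 3.0 (adjusted p = 1.73e-05), and those of CX3CR1-GFP from CCR2-RFP cells -3.48 and -3.17. Both genes passed the filter through the CCR2-RFP libraries alone, so that a difference was bound to appear, and neither could be tested without one of them.

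Kcnj2, which encodes the inward rectifier Kir2.1 that sets the resting potential of macrophages, ran the other way. It stood at 1.25, 1.42 and 1.86 TPM in double-negative, 0.248, 1.04 and 0.344 TPM in CCR2-RFP and 2.72, 2.78 and 2.21 TPM in CX3CR1-GFP libraries, with no overlap between populations. It was 4.72 times as high in CX3CR1-GFP as in CCR2-RFP cells (log2 difference 1.24, adjusted p = 0.00295). Its fall from double-negative to CCR2-RFP cells (-0.73, adjusted p = 0.0437) was lost without any one of double-negative 1, 2A or 2B, CCR2-RFP 1 or 2B, or CX3CR1-GFP 1 or 2B (adjusted p from 0.052 to 0.151), and with the sorts as a block (0.0569). The lysosomal channels Tmem175 (3.71 ± 0.459, 2.26 ± 0.157 and 2.55 ± 0.903 TPM in double-negative, CCR2-RFP and CX3CR1-GFP cells) and Kcnma1, the big-conductance channel also found at the plasma membrane (1.05 ± 0.580, 0.426 ± 0.296 and 0.898 ± 0.620 TPM), passed no test.

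**Figure D3:**
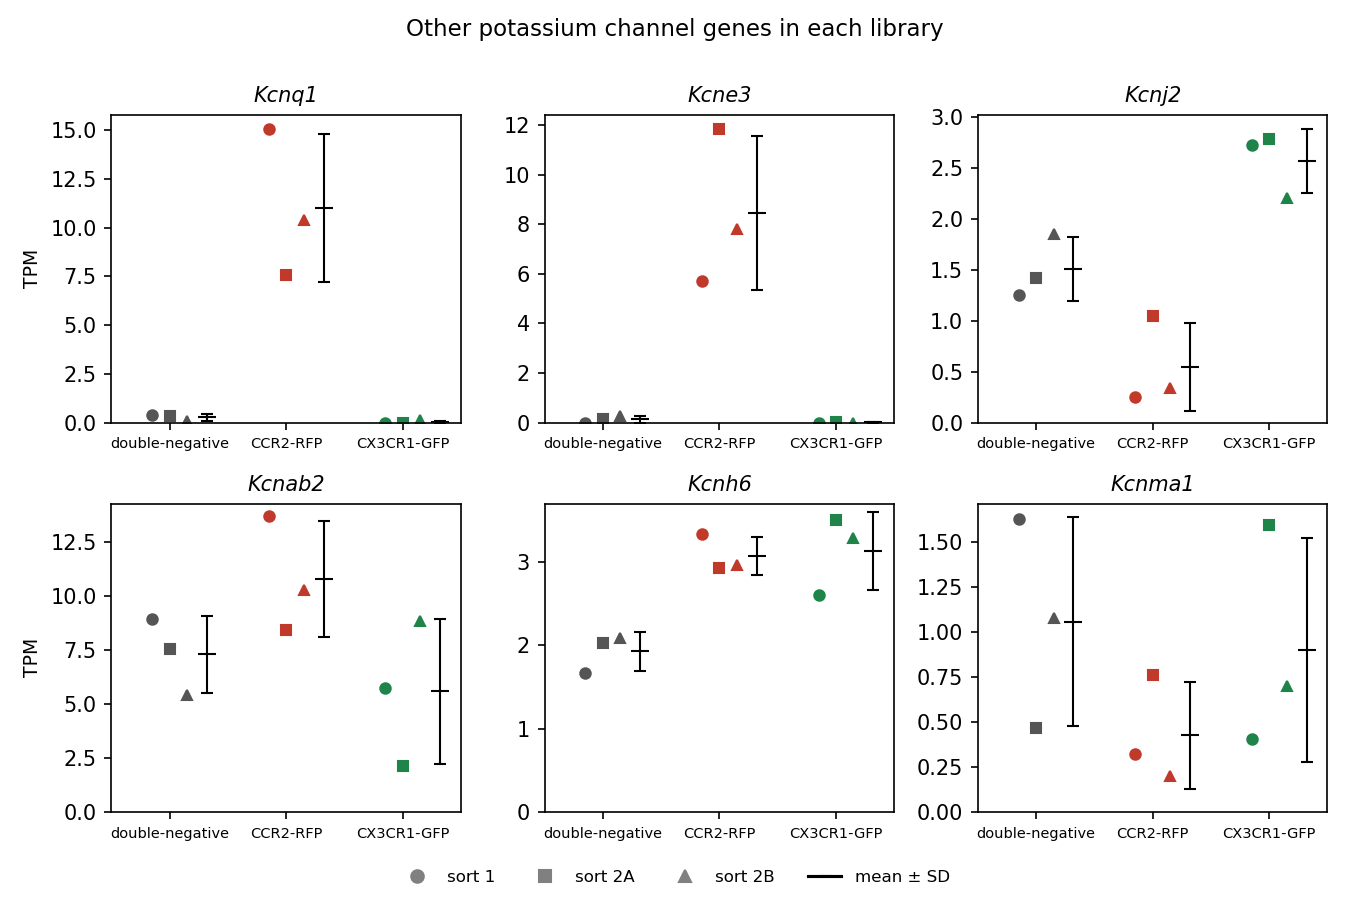
TPM (vertical axes) of Kcnq1, Kcne3, Kcnj2, Kcnab2, Kcnh6 and Kcnma1 in each library of the 3 populations (horizontal axes), with bars for the mean ± SD of 3 libraries and marker shapes for the sorts. Kcnq1 and Kcne3 are high in the 3 CCR2-RFP libraries only, and Kcnj2 is highest in the CX3CR1-GFP libraries.

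The release channels Panx1 and Lrrc8a showed no called difference. Panx1, which encodes pannexin-1, a large-pore channel that caspases open by cleaving its tail, lies on chromosome 9 at 15002128 to 15045478 on the minus strand. It stood at 0.983, 1.54 and 1.10 TPM in double-negative, 1.05, 1.41 and 1.12 TPM in CCR2-RFP and 1.32, 1.21 and 0.239 TPM in CX3CR1-GFP libraries. The single low library was CX3CR1-GFP 2B, and the populations overlapped throughout. The log2 difference of CCR2-RFP minus double-negative cells was -0.01 with a 95% interval of -0.58 to 0.57 (adjusted p = 0.992), that of CX3CR1-GFP minus double-negative -0.25 (-0.82 to 0.33, adjusted p = 0.725) and that of CX3CR1-GFP minus CCR2-RFP -0.24 (-0.82 to 0.34, adjusted p = 0.542). Panx1 is close to the filter in level, its mean lying at percentile 8.96 of the tested genes. Of 16 listed genes for ATP release channels and vesicular nucleotide transport, 5 passed the filter, Panx1 among them. Limma called 0 of the 5 in each comparison, against 24.8%, 2.77% and 26.3% of all tested genes. With 5 genes these counts do not show that the populations are alike. An unadjusted p below 0.05 was found for 1 gene in CCR2-RFP against double-negative cells and for 0 in the others. The median log2 difference of the 5 genes between CCR2-RFP and double-negative cells was -0.22, against 0.09 over all tested genes. Ano6, a scramblase and channel that exposes phosphatidylserine, averaged 7.96 ± 1.78, 6.58 ± 0.466 and 6.02 ± 0.334 TPM in double-negative, CCR2-RFP and CX3CR1-GFP cells, and Calhm2, a member of the family of calcium homeostasis modulator channels, averaged 4.15 ± 0.774, 3.24 ± 0.526 and 4.03 ± 1.09 TPM. The caspase inhibitor in the buffers acts on proteins, and transcript levels carry no information on channel cleavage.

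Lrrc8a, on chromosome 2 at 30237715 to 30263790, encodes the subunit without which no volume-regulated anion channel forms. It stood at 4.30, 6.41 and 6.80 TPM in double-negative, 4.36, 2.59 and 5.80 TPM in CCR2-RFP and 4.50, 2.93 and 4.46 TPM in CX3CR1-GFP libraries. All 3 populations overlapped, and the lowest values of the reporter-positive populations were both from sort 2A. The log2 difference was -0.41 (95% interval -1.02 to 0.20, adjusted p = 0.331) for CCR2-RFP minus double-negative, -0.46 (-1.07 to 0.15, adjusted p = 0.479) for CX3CR1-GFP minus double-negative and -0.05 (-0.66 to 0.56, adjusted p = 0.916) for CX3CR1-GFP minus CCR2-RFP cells. In the annotation, 2853 of the exon bases of Lrrc8a (66.2%) are shared with Gm28035, a gene model on the same strand, so its value may hold reads that the counting could have split.

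Its partner subunits set the selectivity of the channel. Of the 5 LRRC8 genes 4 passed the filter. In CCR2-RFP against double-negative cells 2 of the 4 were higher, and from CCR2-RFP to CX3CR1-GFP cells 1 fell, with medians of 0.74 and -0.90 against 0.09 and -0.11 over all tested genes. Of all tested genes 14.9% were higher in the first comparison and 17.3% lower in the second. Lrrc8c stood at 6.05, 5.81 and 4.62 TPM in double-negative, 11.4, 9.74 and 9.30 TPM in CCR2-RFP and 3.25, 1.99 and 4.56 TPM in CX3CR1-GFP libraries. None of these 3 ranges overlapped. CX3CR1-GFP cells had 0.322 of the Lrrc8c level of CCR2-RFP cells (log2 difference -1.43, adjusted p = 0.0014), a call that held in all 22 alternative settings. The rise of Lrrc8c from double-negative to CCR2-RFP cells (0.78, adjusted p = 0.0348) was lost without any one of the 6 libraries compared (adjusted p from 0.0639 to 0.113), and with the sorts as a block (0.0501). For Lrrc8d the rise was 0.70 (3.26 ± 0.662 to 5.94 ± 1.30 TPM, adjusted p = 0.0301), and it was lost without any one of those libraries except CCR2-RFP 2B (adjusted p from 0.0534 to 0.113).

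Of the calcium-permeable TRP channels, Trpv2 varied more within populations than between them and Trpm2 was below 1 TPM in every library. Trpv2, a calcium-permeable channel of phagocytes involved in particle uptake, lies on chromosome 11 at 62574486 to 62600515. It stood at 2.15, 2.11 and 6.24 TPM in double-negative, 2.52, 6.53 and 2.27 TPM in CCR2-RFP and 2.90, 3.89 and 1.85 TPM in CX3CR1-GFP libraries. A single library was far above its fellows in the first 2 populations, double-negative 2B and CCR2-RFP 2A, and all ranges overlapped. The log2 differences were 0.10 (95% interval -0.82 to 1.01, adjusted p = 0.903), -0.13 (-1.04 to 0.79, adjusted p = 0.923) and -0.22 (-1.14 to 0.69, adjusted p = 0.732) in CCR2-RFP minus double-negative, CX3CR1-GFP minus double-negative and CX3CR1-GFP minus CCR2-RFP cells. The intervals are wide, so that changes of this size in either direction cannot be told from none. Trpm2, on chromosome 10 at 77907722 to 77970563 on the minus strand, encodes the channel gated by ADP-ribose under oxidative stress. It stood at 0.101, 0.201 and 0.193 TPM in double-negative, 0.116, 0.410 and 0.453 TPM in CCR2-RFP and 0.112, 0.492 and 0.966 TPM in CX3CR1-GFP libraries. The sort 1 library was the lowest of each population, and no library reached 1 TPM, so Trpm2 was not tested.

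Of 27 listed TRP channel genes 8 passed the filter. In CCR2-RFP against double-negative cells 0 of these were higher and 2 lower, with a median of -0.38 against 0.09 over all tested genes. That share of calls is near the 24.8% called over all tested genes. The 2 were Trpv4, a calcium-permeable channel opened by stretch and warmth, and Mcoln1, the lysosomal calcium channel TRPML1. Trpv4 stood at 8.58, 10.2 and 5.05 TPM in double-negative, 1.32, 0.814 and 1.15 TPM in CCR2-RFP and 3.98, 3.34 and 3.90 TPM in CX3CR1-GFP libraries. The 3 ranges did not overlap, and the level in CCR2-RFP cells was 0.137 of that in double-negative cells (log2 difference -2.06, adjusted p = 0.000159). CX3CR1-GFP cells were higher than CCR2-RFP cells by 1.18 (adjusted p = 0.00534), and their difference from double-negative cells was -0.87 (adjusted p = 0.103). Mcoln1 averaged 11.6 ± 0.846, 5.89 ± 0.677 and 9.0 ± 1.58 TPM in double-negative, CCR2-RFP and CX3CR1-GFP cells, with a log2 difference of -0.88 between the first 2 (adjusted p = 0.00389). Its higher level in CX3CR1-GFP than CCR2-RFP cells (0.53, adjusted p = 0.0456) was lost without any single library except CX3CR1-GFP 2A (adjusted p from 0.0588 to 0.134), and with the sorts as a block (0.0629).

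The enzymes that make the TRPM2 ligand were measured even though the channel was low. Of 8 tested genes listed under production and breakdown of ADP-ribose, CCR2-RFP cells had 1 higher and 2 lower than double-negative cells (14.9% and 9.88% of all tested genes), with a median of -0.27. The 1 higher was Slc29a3, a nucleoside transporter and not an enzyme of ADP-ribose. Its log2 difference was 0.70 (adjusted p = 0.0253), a call lost in 9 of 22 alternative settings. Cd38, the ectoenzyme that turns NAD into ADP-ribose and cyclic ADP-ribose, stood at 17.3, 23.1 and 17.6 TPM in double-negative, 2.30, 1.03 and 1.01 TPM in CCR2-RFP and 7.35, 5.48 and 8.80 TPM in CX3CR1-GFP libraries. The populations were fully separated. The log2 difference was -3.08 (adjusted p = 1.55e-05) for CCR2-RFP minus double-negative and 1.76 (adjusted p = 0.000528) for CX3CR1-GFP minus CCR2-RFP cells. That of CX3CR1-GFP minus double-negative cells, -1.32 (adjusted p = 0.0197), was lost without double-negative 1, 2A or 2B or CX3CR1-GFP 1 or 2A (adjusted p from 0.0559 to 0.0946). Bst1, the related ectoenzyme CD157, was also lower in CCR2-RFP (1.04 ± 0.0355 TPM) than in double-negative cells (6.04 ± 1.85 TPM, -1.75, adjusted p = 0.000801).

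Calcium handling genes, which decide how far KCa3.1 opens, were also read. Of 20 tested genes for calcium entry and store release CCR2-RFP cells had 5 higher and 3 lower than double-negative cells (14.9% and 9.88% of all tested genes), with a median of 0.02. Limma called 0 between CX3CR1-GFP and double-negative cells, against 2.77% of all tested genes (1 at an unadjusted p below 0.05). CX3CR1-GFP cells had 3 higher and 4 lower than CCR2-RFP cells (8.96% and 17.3% of all tested genes). Itpr1, the inositol trisphosphate receptor that releases stored calcium, averaged 0.298 ± 0.273, 5.42 ± 0.838 and 0.312 ± 0.260 TPM in double-negative, CCR2-RFP and CX3CR1-GFP cells. Atp2a3, a pump that refills the stores, averaged 0.555 ± 0.113, 4.92 ± 0.586 and 0.600 ± 0.289 TPM. Both are high in the same libraries as Kcnn4, with log2 differences of 2.32 and 1.93 between CCR2-RFP and double-negative cells (adjusted p = 4.75e-05 and 7.66e-05), and both passed the filter through those libraries alone. Slc8a1, a sodium-calcium exchanger, averaged 21.1 ± 8.22, 2.98 ± 1.63 and 23.5 ± 7.96 TPM, and Tpcn1, an endolysosomal cation channel, 22.7 ± 2.73, 5.81 ± 1.80 and 20.7 ± 0.930 TPM. Relative to double-negative cells both fell in CCR2-RFP cells (-2.48, adjusted p = 0.000896, and -1.82, adjusted p = 8.1e-05).

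**Figure D4:**
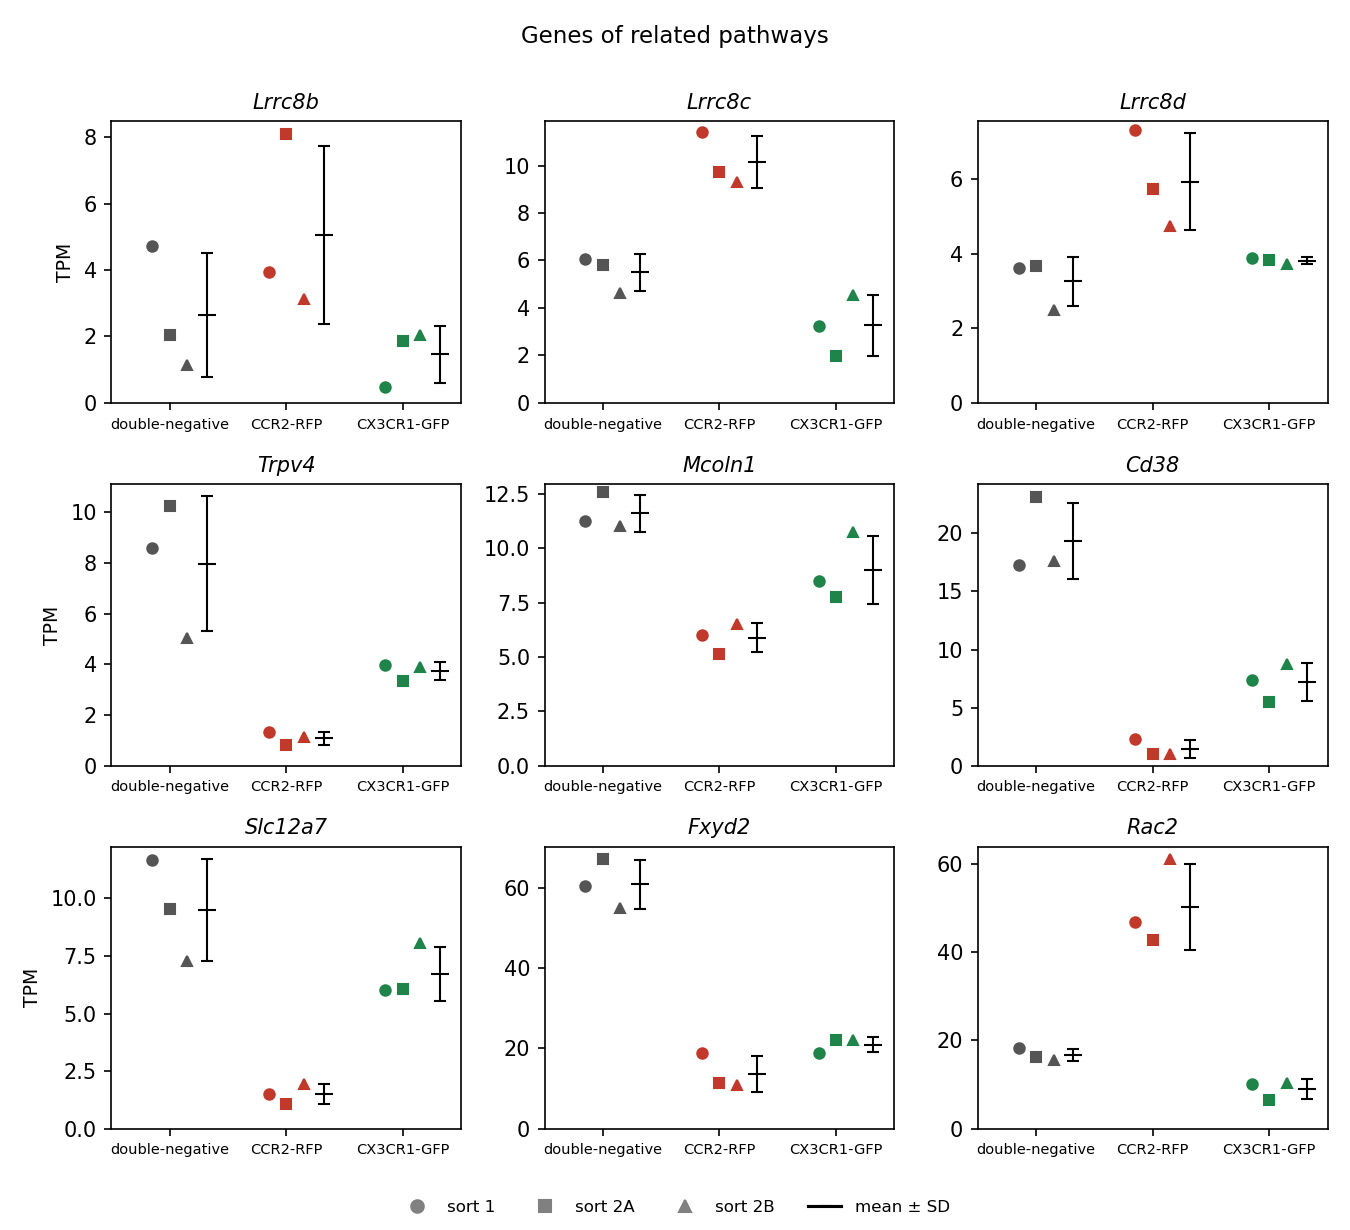
TPM (vertical axes) of Lrrc8b, Lrrc8c, Lrrc8d, Trpv4, Mcoln1, Cd38, Slc12a7, Fxyd2 and Rac2 in each library of the 3 populations (horizontal axes). Points are libraries, shapes the sorts, and bars the mean ± SD of 3 libraries. Trpv4 and Cd38 are lowest in the CCR2-RFP libraries, at 0.814 to 1.32 and 1.01 to 2.30 TPM, and Lrrc8c and Rac2 are highest there.

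Hvcn1 was lowest in CCR2-RFP cells. The gene encodes the voltage-gated proton channel that offsets the charge and acid left by the NADPH oxidase, and lies on chromosome 5 at 122206804 to 122242297. It stood at 2.40, 3.10 and 1.30 TPM in double-negative, 0.164, 0.0486 and 0.427 TPM in CCR2-RFP and 0.997, 1.45 and 1.00 TPM in CX3CR1-GFP libraries. The CCR2-RFP libraries were all below the other 6, and CX3CR1-GFP 2A lay within the double-negative range. Hvcn1 reached 1 TPM only in the 3 double-negative libraries and in CX3CR1-GFP 2A (CX3CR1-GFP 2B was at 0.99993 TPM). A lower level in CCR2-RFP cells was therefore largely set by the filter. The CCR2-RFP mean of 0.213 ± 0.194 TPM was 0.094 of the double-negative mean of 2.27 ± 0.908, a log2 difference of -1.40 (95% interval -1.95 to -0.85, adjusted p = 0.0021). CX3CR1-GFP cells, at 1.15 ± 0.259 TPM, were 5.39 times as high as CCR2-RFP cells (0.83, 0.28 to 1.38, adjusted p = 0.0327) and differed from double-negative cells by -0.57 (-1.12 to -0.02, adjusted p = 0.313). The higher level in CX3CR1-GFP than in CCR2-RFP cells was lost without CCR2-RFP 1 (adjusted p = 0.0909), CCR2-RFP 2A (0.104), CX3CR1-GFP 1 (0.0555), CX3CR1-GFP 2A (0.0835) or CX3CR1-GFP 2B (0.0553). The difference between CCR2-RFP and double-negative cells held without any single library (-1.30, adjusted p = 0.0119, without CCR2-RFP 2A) and was lost with all of sort 1 left out (adjusted p = 0.0575). Of the exon bases of Hvcn1, 1574 (44.2%) are shared with Tctn1 on the opposite strand, which stood at 0.842 to 1.75 TPM over the 9 libraries, and whether counting used strand was not given in the sources used here.

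Most NADPH oxidase genes were highest in the cells where Hvcn1 was lowest. Of 7 tested genes CCR2-RFP cells had 5 higher and 1 lower than double-negative cells, with a median of 0.73. Over all tested genes 14.9% were higher and 9.88% lower, with a median of 0.09. Limma called 0 between CX3CR1-GFP and double-negative cells, against 2.77% of all tested genes (2 at an unadjusted p below 0.05). CX3CR1-GFP cells had 1 higher and 5 lower than CCR2-RFP cells (8.96% and 17.3% of all tested genes). Rac2, the GTPase that switches the oxidase on, averaged 16.7 ± 1.43, 50.2 ± 9.63 and 9.0 ± 2.18 TPM in double-negative, CCR2-RFP and CX3CR1-GFP cells (log2 difference of CCR2-RFP minus double-negative 1.52, adjusted p = 0.000343). Ncf1, the organising subunit p47phox, averaged 25.8 ± 1.59, 49.2 ± 2.12 and 20.1 ± 3.67 TPM (0.91, adjusted p = 0.00155), and Cyba, the membrane subunit p22phox, 18.5 ± 6.07, 43.1 ± 4.86 and 12.9 ± 3.49 TPM (1.22, adjusted p = 0.00514). The gene that was lower, named after its values were seen, was Cybb, the catalytic subunit, at 159 ± 3.22, 120 ± 8.17 and 185 ± 17.9 TPM (-0.40, adjusted p = 0.0388). Of 7 tested acid extrusion genes, Hvcn1 among them, 2 rose and 2 fell from double-negative to CCR2-RFP cells (14.9% and 9.88% of all tested genes), with a median of -0.14 against 0.09. Slc16a3, the lactate and proton exporter MCT4, rose from 0.562 ± 0.445 to 7.47 ± 0.907 TPM (2.47, adjusted p = 4.13e-05), and Slc9a9, an endosomal sodium-proton exchanger, fell from 33.5 ± 1.79 to 9.88 ± 1.45 TPM (-1.67, adjusted p = 3.46e-05).

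The sodium pump and the cotransporters that bring potassium back into the cell were read next. Of 15 tested genes 3 rose and 3 fell from double-negative to CCR2-RFP cells, where 14.9% and 9.88% of all tested genes did (median -0.23, against 0.09). From double-negative to CX3CR1-GFP cells 1 rose and 1 fell, against 1.16% and 1.61%. The 1 that rose, Fxyd5 (0.56, adjusted p = 0.0427), lost its call in 18 of 22 alternative settings, the sort block among them (0.0544). Fxyd2, a regulatory subunit of the pump, averaged 60.9 ± 6.18, 13.6 ± 4.46 and 20.9 ± 1.90 TPM in double-negative, CCR2-RFP and CX3CR1-GFP cells and was lower in both reporter-positive populations than in double-negative cells (-2.12, adjusted p = 3.96e-05, and -1.50, adjusted p = 0.00386). Slc12a7, a potassium-chloride cotransporter, was lower in CCR2-RFP (1.50 ± 0.440 TPM) than in double-negative cells (9.50 ± 2.21 TPM, -2.07, adjusted p = 8.74e-05).

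Genes at both ends of the potassium route were also read. Of 8 tested genes listed by symbol as P2 receptors 2 rose and 6 fell from double-negative to CCR2-RFP cells. Their median was -1.51 against 0.09 over all tested genes, of which 14.9% rose and 9.88% fell. P2ry10 is among them by its symbol, which alone does not make it a nucleotide receptor. The 2 that rose, P2ry1 and P2ry10, were at 0.6 TPM or less in all 6 other libraries and passed the filter through the CCR2-RFP libraries alone, so that a rise was bound to appear. P2rx7, the ATP-gated channel upstream, averaged 35.6 ± 3.04, 8.21 ± 1.41 and 31.9 ± 8.08 TPM in double-negative, CCR2-RFP and CX3CR1-GFP cells, and P2ry12, the ADP receptor linked to THIK-1 in microglia, 32.9 ± 1.66, 3.75 ± 1.33 and 29.0 ± 0.825 TPM. Both were thus lowest in the CCR2-RFP cells, whereas Kcnk13 was lowest in the CX3CR1-GFP cells. Of the 9 tested inflammasome genes 2 rose and 2 fell from double-negative to CCR2-RFP cells (14.9% and 9.88% of all tested genes), with a median of 0.46. Nlrp3, the sensor that responds to potassium loss, averaged 1.05 ± 0.333, 2.64 ± 0.609 and 8.39 ± 4.55 TPM and was higher in CX3CR1-GFP than in double-negative cells (2.11, adjusted p = 0.00562). Il1b, the cytokine gene it serves, averaged 7.52 ± 2.10, 227 ± 37.2 and 56.4 ± 36.4 TPM (4.76, adjusted p = 1.01e-05, for CCR2-RFP minus double-negative).

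Genes with the most similar profiles over the 9 libraries were sought among 2402 genes with a mean of at least 10 TPM, as a description only, since the libraries share populations and sorts. Kcnn4 was closest to Rassf4 (Pearson r = 0.989), Ahcyl2 (0.988) and Lsp1 (0.987), and Kcna3 to Slamf7 (0.955), Fam129a (0.947) and Clec7a (0.946). Kcnk13 was closest to Ehd1 (0.957), Tmem173 (0.927) and Cd209d (0.925), and Hvcn1 to Scamp2 (0.954), Ly6e (0.95) and Tns3 (0.947). For Kcnk6 the closest was Hip1 (0.884), for Panx1 Glyr1 (0.961), for Lrrc8a Prdm2 (0.902) and for Trpv2 Gdi2 (0.887). In order of mean level in the double-negative cells, Kcnk6, Lrrc8a, Kcnk13, Trpv2 and Hvcn1 led Panx1, Kcnn4, Kcna3 and Trpm2. The first 2 overlapped with each other, as did Kcnk13 and Trpv2 with both and Hvcn1 with Trpv2, Kcnk6 and Panx1. Of neighbours in this order only Panx1 and Kcnn4 did not overlap. In CCR2-RFP cells Kcnn4 was the highest of the 9, its lowest library lying above every value of the other 8, and Hvcn1 and Trpm2 were the lowest, overlapping with each other. In CX3CR1-GFP cells Lrrc8a, Kcna3, Kcnk6 and Trpv2, at means of 3.96, 3.64, 3.62 and 2.88 TPM, could not be separated by their spread.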

How the data were processed

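The authors deposited TPM values (transcript levels scaled by length and library total), quantified with Salmon 0.11.3 on mm10 after bcl2fastq 2.18 and cutadapt 1.8.3, per the submitters' processing notes. The transcript index and the use of strand were not stated there. Libraries were grouped by title, source name and cell type, since the description field conflicts for 6 of them. TPM was transformed to log2(TPM + 1), and a gene was tested if 3 or more of the 9 libraries reached 1 TPM. One limma 3.58.1 fit (R 4.3.3) gave the 3 comparisons and the F test, two-sided, with Benjamini-Hochberg adjustment over 10136 genes and calls at an adjusted p below 0.05, and it was tested on simulated data. Named are all 9 channel genes, up to 4 called genes per pathway list by smallest F-test p (with none called, up to 2 of the highest mean), P2rx7 and P2ry12, and the closest profiles. Some genes that the rule names are not reported here. The genes and lists were chosen with earlier results of these data known. Positions are from GENCODE M21, which held 24700 of the 28764 symbols. Sorts were read as mice, and libraries of the same sort had correlated residuals of 0.0315 to 0.205 over 9 pairs, against -0.16 to 0.112 over the other 18. Alternatives covered pseudocount, filter, scaling, a sort block, 2-population fits, the variance trend and each library or sort left out.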

Additional observations from a re-analysis of the deposited data

How the results depend on the processing

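With a replicate block for the sort, the channel genes called stayed at 3, 2 and 2 in CCR2-RFP against double-negative, CX3CR1-GFP against double-negative and CX3CR1-GFP against CCR2-RFP cells, 4 by the F test, and 2428, 256 and 2666 genes were called. Of the channel gene calls the block changed none. It ended calls of Kcnj2, Lrrc8c and Mcoln1, which are given beside them. Fxyd2 between CX3CR1-GFP and CCR2-RFP cells also lost its call (adjusted p = 0.0625). Between CX3CR1-GFP and double-negative cells Fxyd5 (0.0544) and Txnip (0.054) did too. Filtering at 5 TPM, which tests fewer channel genes, left 1, 0 and 1, and 1 by the F test. In the third comparison 1 was called with a pseudocount of 5, no filter, quantile normalization or 2 populations only, and in the second 1 with 2 populations only. Leaving out a library or a sort gave 1 to 5, 0 to 2 and 0 to 2 channel genes, 1 to 4 by the F test, and 1171 to 2767, 25 to 259 and 1259 to 2548 of the main 2513, 281 and 2666 genes. Without a filter 146 genes were called in the second comparison. Higher genes made up 60.2%, 42% and 34.1% of those called, 44.2%, 54.8% and 59.4% after rescaling without Siglece, Rn18s, mitochondrial and ribosomal protein genes, and 49.4%, 50.9% and 48.9% after quantile normalization. Rescaling moved the median of all tested genes from 0.09 to -0.07 (log2) in the first comparison and from -0.11 to 0.13 in the third. Of 505 alternative values of the channel genes 450 kept direction and side of the threshold, 19 lost and 8 gained a call, and 28 changed sign, all of differences that were not called. Between CX3CR1-GFP and CCR2-RFP cells Lrrc8a was at 0.196 after rescaling and 0.0798 after quantile normalization, and Trpv2 at 0.0011 after rescaling. Between CCR2-RFP and double-negative cells Trpv2 was at -0.0585 after rescaling and Panx1 at 0.0162 after quantile normalization. Without a library or sort, differences of CX3CR1-GFP from CCR2-RFP cells ranged from -0.60 to 0.012 for Kcna3, -0.20 to 0.82 for Kcnk6, -0.30 to 0.16 for Lrrc8a, -0.45 to 0.051 for Panx1 and -0.44 to 0.16 for Trpv2. Those from double-negative cells ranged from -0.00019 to 0.42 for Kcnn4, -0.48 to 0.045 for Panx1 and -0.52 to 0.48 for Trpv2 in CX3CR1-GFP cells, and from -0.079 to 0.10 for Panx1 and -0.49 to 0.72 for Trpv2 in CCR2-RFP cells. The cause was not tested. Kcnk13 in CCR2-RFP against double-negative cells was called after rescaling (adjusted p = 0.0199), quantile normalization (0.0276) and median-of-ratios scaling (0.0354). The 3 libraries per population and the unknown depth limit all values near 1 TPM.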
